A study of Mus musculus with 12 samples.

Results

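The fibroblast growth factor (FGF) signalling system was examined in 2 mouse osteosarcoma cell lines through 33 of its genes, out of 20144 genes that the arrays covered with a named probe. The genes were chosen by family and role: 22 FGF genes, 5 receptor genes including the decoy receptor Fgfrl1, the klotho co-receptors Kl and Klb, and the feedback regulators Spry1, Spry2, Spry4 and Dusp6. The 22 FGF genes are called ligands below by family, whether or not each protein acts through these receptors. All 33 had at least 1 probe and 47 probes represented them.

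Dunn is a mouse osteosarcoma line of low metastatic potential, and LM8 is a highly metastatic line that had been obtained from it by repeated selection in mice. Each line was compared at an early and at a late passage, so the 4 groups were early Dunn (passage 25), late Dunn (passage 86), early LM8 (passage 24) and late LM8 (passage 91). All 4 groups were grown in the same serum-containing medium without treatment, no engineered genetic change is described for them, and RNA was taken below confluence. Each group had 3 cultures, described as independent, and each culture was hybridised to 1 single-colour array. LM8 is 1 selected descendant of 1 parental line and each passage state is 1 cell stock, so the tests measure the spread between parallel cultures of a stock. The comparison of the lines with passages pooled had no term for passage, so its spread also holds the difference between the stocks of a line. The array design held 3 slides of 4 arrays, and every slide carried 1 array of each group.

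The arrays gave a processed signal at the 75th percentile of probes with a group median of 386.5 in early Dunn, 756.6 in late Dunn, 1207 in early LM8 and 1365 in late LM8, and between 39.1% and 59.7% of probes were well above background. A level below is the log2 ratio of a probe's signal to that percentile on its own array. Well above background is the scanner software's own call for a spot. On slide 1, the dim probes of both Dunn arrays had a median signal of 10.5 and 13.2, against 2.64 to 4.90 on the other 10 arrays. Of 9 osteoblast markers with a probe, 7 were well above background on every measured array, and of these Runx2, Sp7, Col1a1 and Ibsp were measured on all 12. Dmp1 was not above it on the Dunn arrays of slide 1, nor Phex on these and early Dunn replicate 3. Among 9 markers of leukocytes, macrophages, endothelium and epithelium with a probe, 7 were well above background in no group, and Cdh5, Cdh1 and Krt8 on no array, while Csf1r was above it on all 12 with 1 of its probes. The endothelial marker Pecam1 was above it on every late LM8 array and on some arrays of late Dunn and early LM8.

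Secreted FGF ligands bind receptor tyrosine kinases on the cell surface with heparan sulfate as a cofactor, and the activated receptor passes the signal through the adaptor FRS2 to the RAS-ERK cascade. Active ERK induces its own inhibitors, the Sprouty proteins and the ERK phosphatase Dusp6, so their transcripts are widely used as readouts of the pathway. In bone, Fgf18 and the receptors Fgfr1, Fgfr2 and Fgfr3 control osteoblast and cartilage growth, whereas Fgf23 is a hormone of bone cells that acts on the kidney together with the co-receptor Kl.

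The promoters of 3 genes called in a comparison below are shown with every CG dinucleotide in capitals. Each is the 250 bases before the transcription start, written 5′ to 3′ on the gene's strand, from the RefSeq annotation of the mouse build GRCm38.p6. Fgf9 lies at chr14:58072436-58072685 on the plus strand, Fgf18 at chr11:33147401-33147650 on the minus strand and Fgfr2 at chr7:130266809-130267058 on the minus strand.
Fgf9: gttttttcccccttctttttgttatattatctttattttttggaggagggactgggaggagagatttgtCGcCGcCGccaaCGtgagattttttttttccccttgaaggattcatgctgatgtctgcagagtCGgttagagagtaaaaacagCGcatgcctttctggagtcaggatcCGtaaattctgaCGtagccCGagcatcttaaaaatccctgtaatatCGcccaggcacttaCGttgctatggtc
Fgf18: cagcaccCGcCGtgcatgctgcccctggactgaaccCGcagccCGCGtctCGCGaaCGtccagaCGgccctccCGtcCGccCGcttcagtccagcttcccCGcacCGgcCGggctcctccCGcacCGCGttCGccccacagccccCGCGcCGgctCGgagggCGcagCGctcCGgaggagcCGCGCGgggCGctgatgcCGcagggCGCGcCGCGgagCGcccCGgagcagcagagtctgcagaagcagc
Fgfr2: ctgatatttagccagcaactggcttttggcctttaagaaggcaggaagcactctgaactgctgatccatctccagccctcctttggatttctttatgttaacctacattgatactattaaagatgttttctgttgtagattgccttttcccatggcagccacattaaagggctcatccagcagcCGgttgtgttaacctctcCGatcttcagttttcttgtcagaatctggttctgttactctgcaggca
The Fgf18 stretch held 37 CG dinucleotides at a GC content of 77.2%, the Fgf9 stretch 11 at 44.8% and the Fgfr2 stretch 2 at 44.0%. Promoter windows of 250 bases before to 50 after the start were found for 25 of the 33 members, as 32 windows. Their CG count had a median of 19 and a range of 3 to 47, against a median of 7 and a range of 0 to 67 over 32851 windows of all genes. The 9 windows of members that were well above background in all 4 groups had a median of 26 CG, and the 21 windows of members above it in no group had a median of 18. The letters TATAAA were in 3 of the 32 windows on either strand (9.38%), against 13.6% of all windows. The letters CCGGAAG, a core bound by ETS factors, were in 1 of them, at Fgfrl1 (3.12%), against 8.86% of all windows. These counts describe the windows and no binding was measured. The 3 were chosen because their CG counts lie far apart.

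Of the 33 FGF genes, 14 could be measured in at least 1 group of these cells. A member is called detected in a group when a probe of it was well above background on every measured array of that group. There were 10 members detected in all 4 groups, and 4 detected in some of them: Fgf1 in both late-passage groups, Fgf8 in all but early Dunn, Fgf9 in late LM8 alone and Spry2 in both LM8 groups. A group without detection was not always lower in level. Mean Fgf1 was -4.20 in early Dunn and -5.26 in late LM8. Mean Fgf8 was -4.73 in early Dunn and -4.75 in early LM8, and mean Spry2 -5.34 in late Dunn and -5.33 in early LM8. The lowest signal well above background was -3.58 on early Dunn replicate 1 and -6.45 on early LM8 replicate 1. The other 19 members were detected in no group, and 7 of these (Fgf2, Fgf5, Fgf10, Fgf16, Fgf21, Kl and Spry4) were not well above background on a single array. Fgf3, Fgf4 and Fgf6 were above it only on the array of late Dunn replicate 1, whose dim probes had the median signal of 13.2. For comparison, 9575 of all 20144 genes had a probe well above background on every array and 7469 were detected in no group. In GRCm38.p6 Fgf1 is annotated on chromosome 18, Fgf7 on 2, Fgf8 on 19, Fgf9 and Spry2 on 14, Fgf15 and Fgfr2 on 7, Fgf18 on 11, Fgf23 on 6, Fgfr1 on 8, Fgfr3 and Fgfrl1 on 5, Spry1 on 3 and Dusp6 on 10.

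The receptors were the most completely detected role. Fgfr1, Fgfr2, Fgfr3 and Fgfrl1 were detected in all 4 groups, and Fgfr4, a receptor best known from liver, in none. Of the 22 ligands, Fgf7, Fgf15, Fgf18 and Fgf23 were detected in all groups and 15 in none. Neither klotho gene was detected in any group. Of the feedback regulators, Spry1 and Dusp6 were detected in all groups, Spry2 in LM8 alone and Spry4 in none. The count of detected members was 10 in early Dunn, 12 in late Dunn, 12 in early LM8 and 14 in late LM8. The signal at the 75th percentile rose through the groups in nearly that order, and its part in these counts was not tested.

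**Figure D1:**
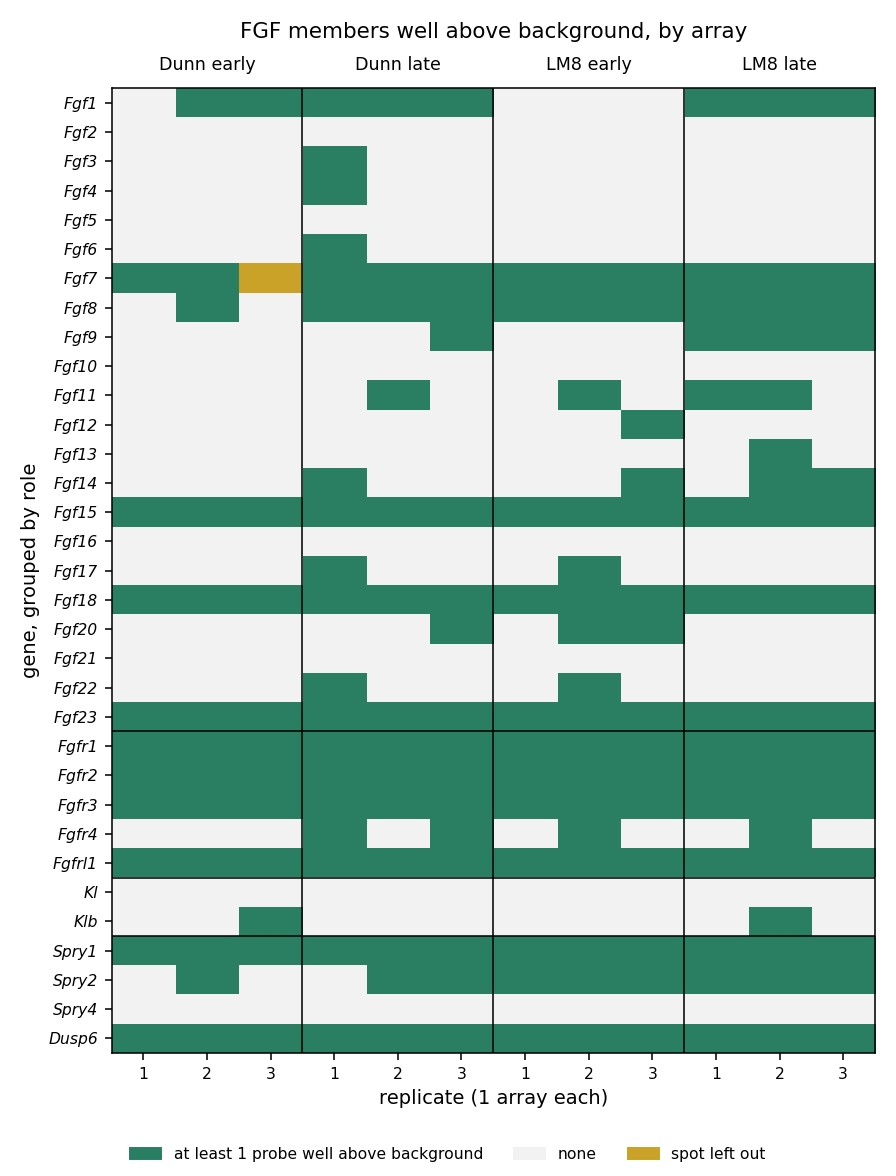
The 33 FGF members, one line each and ordered by role, on the 12 arrays, with green where at least 1 probe was well above background and yellow where the spot was left out. The receptors Fgfr1, Fgfr2, Fgfr3 and Fgfrl1 are green on every array, whereas 19 members are not green throughout any group.

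Fgf15, a hormone-like ligand of the FGF19 subfamily, was lower at late than at early passage in both lines. In early Dunn its level was -1.09, -1.28 and -0.77 on the 3 arrays, and in late Dunn it was -2.66, -4.64 and -5.09. In early LM8 it was 0.23, -0.13 and -0.49, and in late LM8 -0.95, -1.31 and -1.74. Within each line the early and late arrays did not overlap, and the late Dunn arrays lay far apart from each other. The late minus early difference was -3.08 (SE 0.69, 95% confidence interval -4.80 to -1.37) in Dunn, with an adjusted p of 0.547 in limma over all probes. By slide that difference was -1.57, -3.36 and -4.32. In LM8 it was -1.21 (SE 0.29, interval -1.90 to -0.51), with an adjusted p of 0.121, and by slide it was -1.18, -1.18 and -1.25. Neither difference passed the test over all 3 slides, and the slide values of LM8 were much closer together than those of Dunn. Without the arrays of slide 1, where the dim probes of Dunn stood apart, the Dunn difference was -3.84 with an adjusted p of 0.0152.

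Fgf9, a ligand with roles in skeletal growth, and Fgf1, the broadly binding acidic FGF, rose in late LM8. The level of Fgf9 was -7.94, -7.40 and -8.87 in early LM8, well above background on none of these arrays, and -3.80, -3.41 and -3.18 in late LM8, above background on all 3. In Dunn it was -5.73, -6.53 and -6.88 at early and -6.48, -6.88 and -4.46 at late passage, with 1 late array above background. Late LM8 thus stood above every other array of the series for this gene. The fitted difference in LM8 was 4.61 (SE 0.40, interval 3.66 to 5.55) with an adjusted p of 0.00247. Because the early side was at background, the measured rise is a bound: at least 7.93-fold higher, when an early array is set to the higher of the gene's own signal and the lowest signal well above background on it. By slide the fitted difference was 4.13, 4.00 and 5.69. With normexp background correction the difference was 1.25 (adjusted p 0.0160) and with a floor on dim signals 0.19, so the size of the rise depends on how dim signals are treated and the bound holds for the processed signals only. That floor, at -3.58, also raised the late LM8 value of -3.80, which was well above background.

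The level of Fgf1 on its brighter probe was -4.58, -4.57 and -3.45 in early Dunn and -3.65, -2.82 and -2.66 in late Dunn. It was -7.13, -8.33 and -7.31 in early LM8 and -5.43, -4.93 and -5.42 in late LM8. All early LM8 arrays were below all others and none of them was well above background, and each late Dunn array was above every LM8 array. The LM8 passage difference was 2.33 (SE 0.36, interval 1.48 to 3.18; adjusted p 0.0250), or at least 2.29-fold higher at late passage. Without any 1 of the 3 late LM8 arrays the adjusted p of Fgf1 was 0.0756, 0.114 and 0.0974, so this call rests on all of them. With the replicate number (slide) as a block the adjusted p was 0.114, and with normexp background correction the difference was 0.31. The other Fgf1 probe was well above background on 1 array alone, late LM8 replicate 2. It gave -8.04, -7.69 and -6.74 in early LM8 and -6.45, -4.11 and -8.75 in late LM8, which overlapped. In late Dunn it gave -4.63, -6.62 and -6.78, which overlapped late LM8. The Fgf1 differences given here and below are those of the brighter probe.

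Fgf18, which supports osteoblast and cartilage development, was measured by a pair of probes that moved apart. The brighter one gave -2.68, -2.88 and -1.73 in early Dunn, -4.37, -4.12 and -3.61 in late Dunn, -3.28, -3.82 and -3.43 in early LM8 and -3.30, -3.75 and -3.86 in late LM8. Early Dunn was above the other 3 groups without overlap on that probe. The dimmer one gave -3.13, -3.91 and -2.88 in early Dunn, -2.96, -4.44 and -4.58 in late Dunn, -4.37, -4.68 and -4.43 in early LM8 and -4.45, -5.32 and -4.92 in late LM8. The late minus early Dunn difference of the brighter probe was -1.60 (SE 0.44, adjusted p 0.717), which did not pass the test.

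Fgf7, the keratinocyte growth factor, and Fgf23 were detected throughout. Fgf7 was 2.88 and 3.07 in early Dunn, where the spot of replicate 3 was left out as an outlier, and 2.83, 2.94 and 3.02 in late Dunn. It was 2.32, 2.51 and 2.48 in early LM8 and 3.03, 2.92 and 2.92 in late LM8. Early LM8 was the lowest group without overlap, and the passage difference there was 0.52 (SE 0.17, adjusted p 0.261). The brighter probe of Fgf23 was 2.44, 2.51 and 3.53 in early Dunn and 2.29, 2.17 and 3.03 in late Dunn. It was 1.97, 1.93 and 2.51 in early LM8 and 1.86, 2.25 and 2.40 in late LM8, and the groups overlapped. The other Fgf23 probe was well above background on no array.

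Fgf8 was detected in 3 groups with all its levels between -5.22 and -3.14, and its groups overlapped. The remaining 15 ligands, which include Fgf2, the basic FGF, and Fgf10, were detected in no group.

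**Figure D2:**
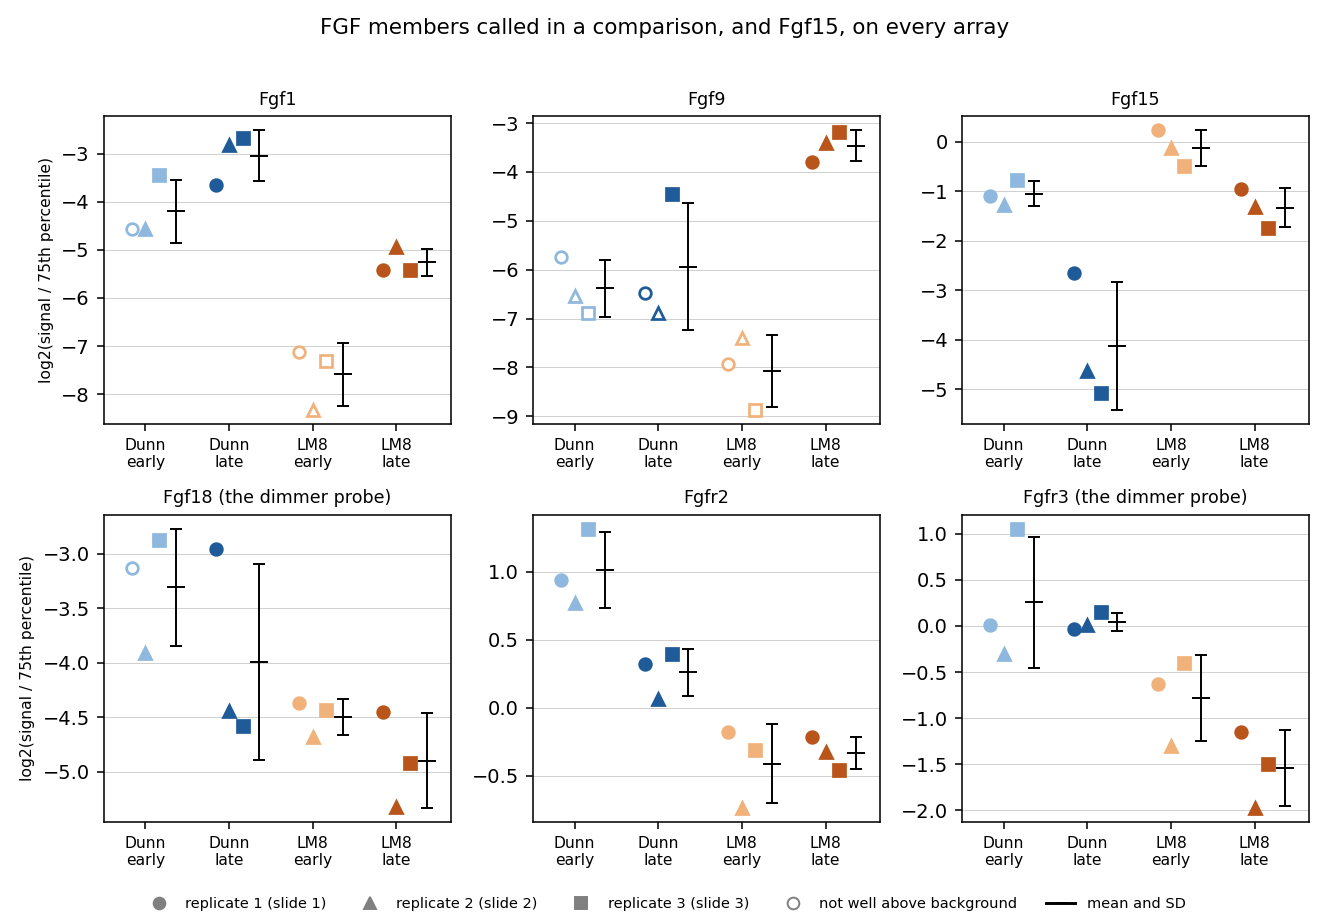
Levels of the FGF members called in a comparison, and of Fgf15, on each of the 12 arrays as log2 of the processed signal over the array's 75th percentile, with symbols for replicates, open symbols where the spot was not well above background, and bars for the group mean and SD. Fgf15 is lower at late passage in both lines, and the 3 late LM8 arrays of Fgf9, from -3.80 to -3.18, lie above all others.

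Fgfr1, the receptor most tied to mesenchymal cells, had levels of 4.28, 4.24 and 4.90 in early Dunn, 3.74, 4.28 and 3.89 in late Dunn, 3.70, 3.94 and 3.94 in early LM8 and 3.64, 3.62 and 4.09 in late LM8 on its brightest probe. Early Dunn and early LM8 did not overlap, and the late groups did. Fgfr2, the receptor of Fgf7 and Fgf10 in its epithelial form, gave 0.94, 0.77 and 1.32 in early Dunn and 0.32, 0.07 and 0.40 in late Dunn. It gave -0.18, -0.74 and -0.31 in early LM8 and -0.22, -0.33 and -0.45 in late LM8. All 6 Dunn arrays were above all 6 LM8 arrays, and early Dunn was above late Dunn.

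Fgfr3, the receptor that restrains growth-plate cartilage, was again read by a pair of probes that differed. The brighter gave 1.44 in early Dunn, where the spots of the other replicates were left out as outliers and comparisons with early Dunn could not be fitted for it, and 2.51, 3.51 and 2.93 in late Dunn. In LM8 it gave 2.69, 3.22 and 2.96 at early and 2.71, 2.70 and 2.83 at late passage, within the late Dunn range. The dimmer gave 0.01, -0.31 and 1.06 in early Dunn and -0.03, 0.01 and 0.15 in late Dunn, and -0.63, -1.30 and -0.41 in early LM8 and -1.15, -1.98 and -1.50 in late LM8. On the dimmer probe every Dunn array exceeded every LM8 array. Fgfrl1, whose protein lacks the kinase domain, had levels of 3.34, 2.44 and 3.74 in early Dunn, 2.74, 2.81 and 2.80 in late Dunn, 3.01, 2.95 and 2.60 in early LM8 and 2.34, 2.15 and 2.26 in late LM8. Late LM8 was the lowest group, below all other arrays.

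Among the feedback regulators, Dusp6 had levels of 0.37, 0.24 and 0.55 in early Dunn, 0.58, 0.22 and 0.28 in late Dunn, -0.39, -0.02 and -0.49 in early LM8 and -0.15, -0.10 and 0.16 in late LM8. Every Dunn array was above every LM8 array for this ERK phosphatase. Spry1 gave -0.36, 0.33 and -0.42 in early Dunn and 0.02, 0.57 and -0.30 in late Dunn, against -0.71, -0.35 and -0.83 in early LM8 and -0.81, -0.91 and -0.91 in late LM8. Late LM8 was below both Dunn groups without overlap. Spry2 was dim, with every level between -6.49 and -4.59.

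The passage comparisons ask which transcripts changed with prolonged culture of each line. In Dunn, no member was called, where a call needs a probe over 2-fold at an adjusted p under 0.05 that was well above background on the higher side. The background rate of calls in that comparison was 0.00499% of genes, or 1 gene. At an unadjusted p under 0.05 and over 2-fold, 2 members stood lower, Fgf15 and Fgf18, against 3.83% of all genes, and the plain t-test with adjustment called 0. On their brightest probe, Fgf15, Fgf18 and Fgfr2 were lower at late passage without overlap of the groups, a pattern met by 15% of genes. The median difference over the members was -0.25, against -0.34 over all genes. Fgf1 was higher by 1.15 (SE 0.49) and Fgfr2 differed by -0.75 (SE 0.32), both with an adjusted p of 0.781.

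In LM8, 2 members were called higher at late passage, Fgf9 and Fgf1, and none lower. In that comparison 0.978% of genes were called higher and 1.64% lower. Over 2-fold at an unadjusted p under 0.05 there were 7 members, 3 higher and 4 lower, against 8.77% of genes, and 3 of the 7 were detected in no group. The groups did not overlap for Fgf1, Fgf7, Fgf9 and Spry2, which were higher at late passage (6.07% of genes), nor for Fgf15 and Fgfrl1, which were lower (10.8% of genes). The difference of Fgfrl1 was -0.61 (SE 0.20, adjusted p 0.247) and that of Spry2 0.34 (SE 0.21, adjusted p 0.366). The median over the members was -0.21, against -0.18 over all genes.

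**Figure D3:**
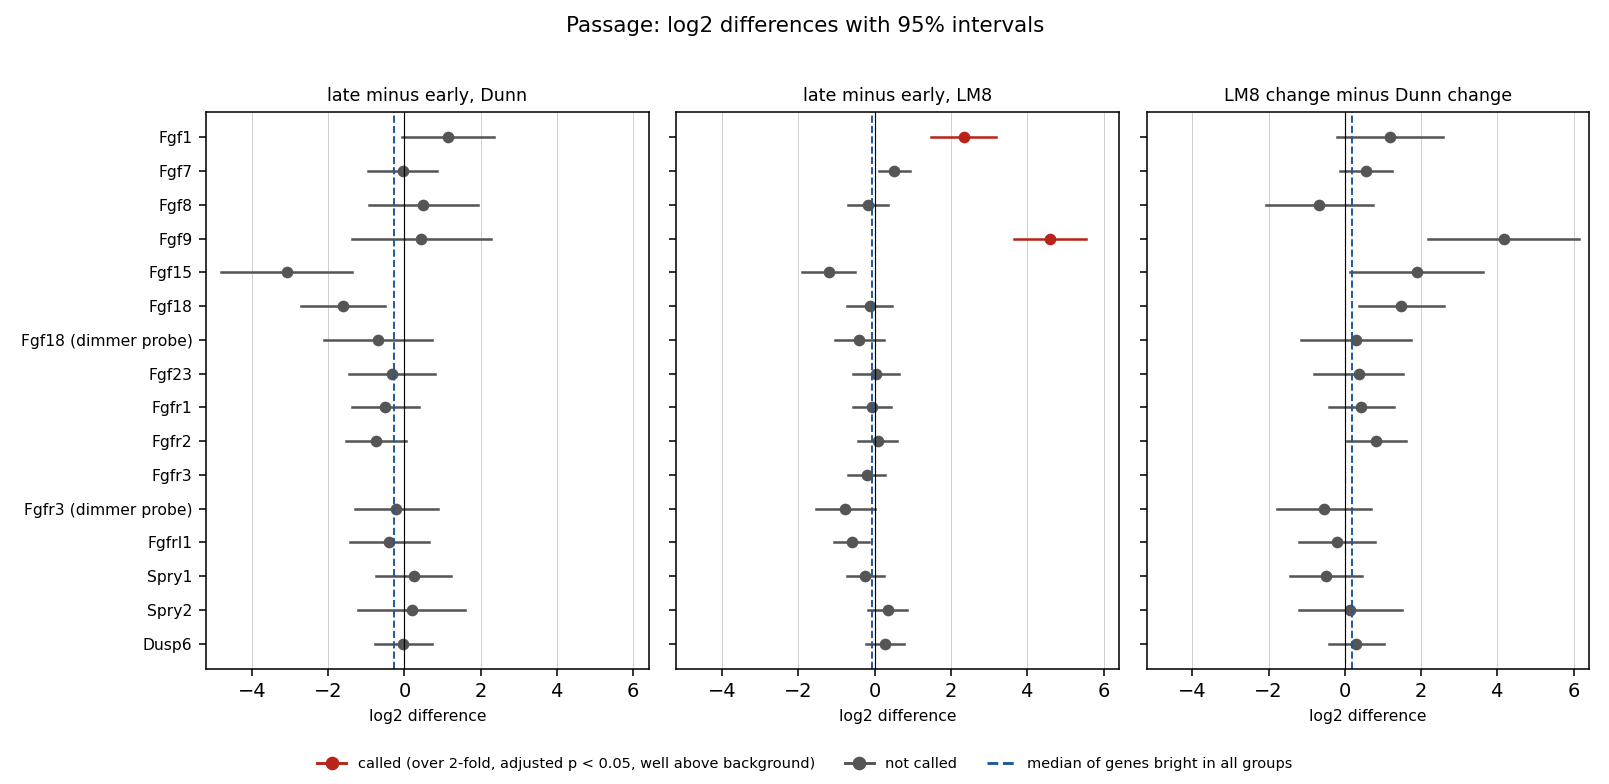
Late minus early difference of each detected FGF member in Dunn, in LM8 and as the LM8 minus Dunn change, as a log2 difference with its 95% confidence interval from limma and with called members in red. Fgf9 and Fgf1 are the called members, at 4.61 and 2.33 in LM8, and Fgf15 lies below 0 in both lines.

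The 2 lines were compared next, since LM8 is the metastatic descendant of Dunn. At early passage no member was called, against 3.74% of genes. The adjusted p of Fgf1 was 0.0181 for a difference of -3.39 (SE 0.49, interval -4.56 to -2.22), lower in LM8. It was not called because only 2 of the 3 early Dunn arrays were well above background, and no bound on its fold is given for the same reason. Fgf1 was called when the arrays of slide 1 were left out (-3.81, adjusted p 0.0141). Over 2-fold at an unadjusted p under 0.05 there were 15 members, all lower in LM8, against 37.7% of genes that were lower, and the t-test with adjustment called 0. Of those 15, 10 were detected in no group. Fgfr2 differed by -1.42 (SE 0.33, adjusted p 0.0683) and Fgf15 by 0.92 (SE 0.34, adjusted p 0.0875). Without overlap of the groups, Fgf15 was higher in LM8 (6.27% of genes), and Dusp6, Fgf18, Fgfr1 and Fgfr2 were lower (23.1%).

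At late passage, Fgf1 was the only called member, lower in LM8 by a difference of -2.21 (SE 0.35, interval -3.10 to -1.33; adjusted p 0.0409), against 2.45% of genes called lower. By slide it was -1.77, -2.11 and -2.76. Without late LM8 replicate 1, 2 or 3, or late Dunn replicate 2 or 3, Fgf1 was not called, and its adjusted p reached 0.212. With the replicate number (slide) as a block it was 0.133, and without the arrays of slide 1 the called members were Fgf1, Fgf15 and Fgfr3. At an unadjusted p under 0.05 there were 7 members over 2-fold, against 16.2% of genes, and 2 of them were detected in no group. Fgf15 was higher in LM8 by 2.80 (SE 0.69, adjusted p 0.117) and Fgf9 by 2.47 (SE 0.69, adjusted p 0.146), neither of which passed. The dimmer probe of Fgfr3 differed by -1.59 (SE 0.28, adjusted p 0.0557) and Spry1 by -0.97 (SE 0.29, adjusted p 0.17). The late groups did not overlap for Fgf15 and Fgf9, which were higher in LM8 (9.21% of genes), nor for Dusp6, Fgf1, Fgfr2, Fgfrl1 and Spry1, which were lower (21.2%).

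With the passages pooled, 6 arrays against 6, 4 members were called, all lower in LM8: Fgf1, Fgf18, Fgfr2 and Fgfr3, against 7.36% of genes called lower. The 6 arrays of a line come from an early and a late stock, and no term for passage was fitted. Fgf1 differed by -2.80 (SE 0.60, interval -4.11 to -1.50; adjusted p 0.00905) and Fgfr2 by -1.01 (SE 0.23, adjusted p 0.0122), with its other probe at -0.76 (adjusted p 0.0211). Fgf18 and Fgfr3 were called through their dimmer probes alone, at -1.05 (SE 0.34, adjusted p 0.0317) and -1.31 (SE 0.31, adjusted p 0.0135). For Fgf18 the adjusted p was under 0.05 in only 5 of 12 fits that each left out 1 array, and reached 0.0707. Fgfr2 kept an adjusted p under 0.05 in all 12, with differences from -1.12 to -0.87, some of them under 2-fold. Their brighter probes differed by -0.34 (SE 0.40, adjusted p 0.484) and 0.25 (SE 0.36, adjusted p 0.567). The probes of both genes thus disagreed, for Fgfr3 in sign. Dusp6 at -0.54 (SE 0.17, adjusted p 0.031) and Spry1 at -0.73 (SE 0.22, adjusted p 0.0302) passed the test under 2-fold, and so did the second Fgfr1 probe at -0.87 (SE 0.20, adjusted p 0.0128). Over 2-fold at an unadjusted p under 0.05 there were 19 members, 18 lower and 1 higher, against 44.3% of genes, and 12 of the 19 were detected in no group. Without the arrays of slide 1, Fgf1 was the only member called. All pooled arrays of the lines were separated without overlap for Dusp6, Fgf1 and Fgfr2, which were lower in LM8 (12% of genes).

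The sign of the smaller differences depended on the scaling. Over all genes the median LM8 minus Dunn difference with passages pooled was -0.66, over the members -1.1, over genes detected in all 4 groups -0.34, and over the FGF members detected in all 4 groups -0.47. In the deposited signals without scaling the median over all genes was 0.50, and the pooled differences of Fgfr2 and of the dimmer Fgf18 probe were then 0.16 and 0.12. Without scaling Dusp6 was at 0.63, Spry1 at 0.44 and the brightest Fgfr1 probe at 0.77, so their direction is relative to each array's 75th percentile. That Fgfr1 probe is not the second probe that passed the pooled test. Its scaled group means were 4.48 in early and 3.97 in late Dunn, and 3.86 in early and 3.78 in late LM8. Fgf1 stayed lower in LM8, Fgf15 lower at late passage, and Fgf9 and Fgf1 higher in late LM8 under each scaling tried. All 19 members detected in no group were lower in LM8 in each of the 3 line comparisons, with medians of -1.42 at early passage, -1.83 at late passage and -1.53 pooled, and the median level of their probes went from -6.57 in early Dunn through -7.42 in late Dunn and -8.14 in early LM8 to -8.64 in late LM8. The part of the higher array signal of LM8 in those values was not tested.

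**Figure D4:**
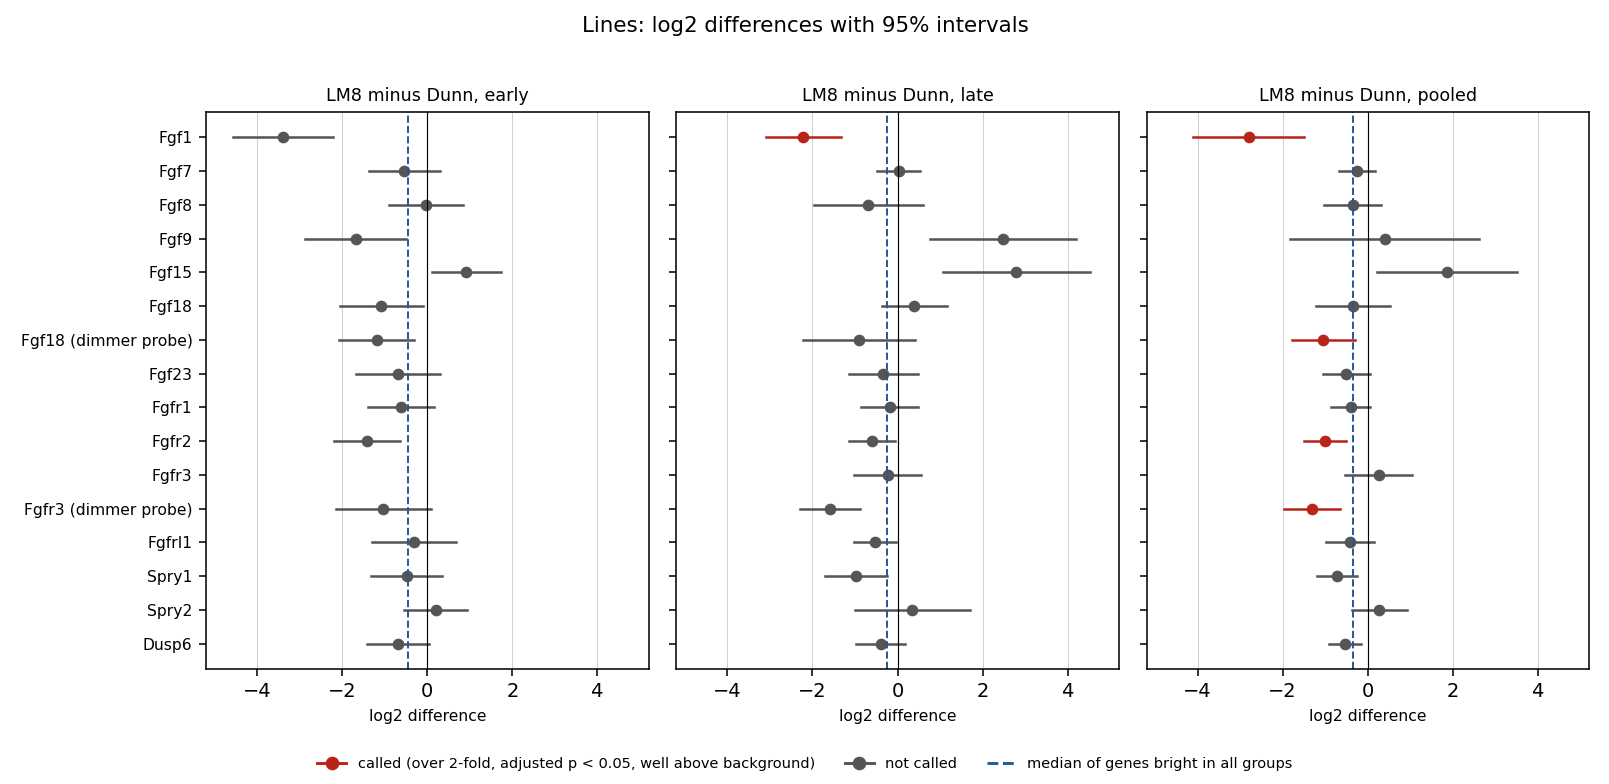
LM8 minus Dunn difference of each detected FGF member at early passage, at late passage and pooled, as a log2 difference with its 95% confidence interval from limma, called members in red and the median of genes detected in all groups as a dashed line. Fgf1 lies below 0 in all 3 comparisons, from -3.39 to -2.21.

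Whether passage acted differently in the 2 lines was tested as an interaction, and no member was called, against 0.669% of genes. With no adjustment of p, 4 members passed 2-fold at p under 0.05, against 6.13% of genes. Fgf9 had the greatest difference of passage changes among the detected members, 4.16 (SE 0.89, adjusted p 0.116), higher in LM8, followed by Fgf15 at 1.88 (SE 0.78, adjusted p 0.816). Fgf18 was at 1.48 (SE 0.50, adjusted p 0.557) and Fgf1 at 1.18 (SE 0.62). The rise of Fgf9 and Fgf1 called in LM8 is therefore not shown to differ from the change in Dunn.

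Fgf15 lies on chromosome 7 beside Ccnd1, which encodes cyclin D1, and a block of genes that includes Ano1, Fadd, Ppfia1 and Cttn. Of the 5 neighbours with a probe, 0 were called by limma in either passage comparison. In Dunn, where Fgf15 differed by -3.08, Ccnd1 differed by -0.47, Ano1 by -0.25, Fadd by -0.14, Ppfia1 by 0.11 and Cttn by 0.25. In LM8 Ccnd1 differed by -0.20, Ano1 by 0.53, Fadd by -0.04, Ppfia1 by 0.02 and Cttn by -0.01. Ano1 was well above background on no array, so its values do not measure a change. None of the other neighbours differed by as much as Fgf15 in either line. With no adjustment of p the 2-fold limit was passed by 0 of them as well.

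Other genes of the pathway were taken as lists of 18 adaptor and RAS-ERK genes, 16 ERK-induced transcripts and 22 genes of heparan sulfate. In the Dunn passage comparison limma called no gene of the 3 lists, against 0.00499% of all genes. Without the adjustment, at p under 0.05, they held 1, 3 and 0 genes over 2-fold. Only 1 of these, in the ERK-induced list, was lower, against 3.83% of all genes. Araf, Etv1 and Etv4 were higher, and the share of all genes higher at that level is not given here. In LM8, the ERK-induced list had 1 gene called higher and 2 lower at late passage, the heparan sulfate list 0 higher and 1 lower, and the adaptor list none. Over all genes, 0.978% were called higher and 1.64% lower there. Etv4, an ETS factor induced by FGF signalling, rose by 1.52 (SE 0.21, adjusted p 0.0162). Etv1, another ETS factor of that group, differed by -1.92 (SE 0.21, adjusted p 0.00583) and Fosl1, an AP-1 subunit, by -2.12 (SE 0.19, adjusted p 0.00274). Sulf2, which removes sulfate groups from heparan sulfate, differed by -1.05 (SE 0.18, adjusted p 0.0362). With the slide block the adjusted p was 0.0676 for Etv4 and 0.110 for Sulf2, against 0.0339 for Etv1 and 0.0263 for Fosl1. Without the arrays of slide 1 it was 0.108, 0.277, 0.0755 and 0.0693 for these 4 genes, so none passed there, and with normexp Sulf2 was at -0.60 (adjusted p 0.450). The called ERK-induced transcripts thus moved both ways. In Dunn the differences of Etv4, Fosl1 and Etv1 were 2.57 (SE 0.41), -1.64 (SE 0.37) and 1.0 (SE 0.33), with adjusted p of 0.336, 0.542 and 0.781.

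Between the lines, 2 heparan sulfate genes were called higher in LM8 at both passages and pooled: Sulf1, an extracellular sulfatase, and Hpse, the enzyme that cleaves heparan sulfate. Of all genes, 1.5% were called higher at early passage, 1.4% at late passage and 5.47% pooled. The level of Sulf1 was -5.24, -7.63 and -6.73 in early Dunn and -6.14, -8.36 and -8.13 in late Dunn, against -1.98, -2.35 and -1.44 in early LM8 and -1.79, -2.11 and -2.07 in late LM8. All LM8 arrays stood above all Dunn arrays. Pooled, Sulf1 was at least 9.34-fold higher in LM8 with a fitted difference of 5.08 (adjusted p 3.1e-05), and Hpse had a fitted difference of 3.88. Sdc4, a heparan sulfate proteoglycan, was called higher in the pooled comparison (1.81, SE 0.43, adjusted p 0.0150). Fgfbp3, which binds secreted FGFs, differed by -2.40 (SE 0.29, adjusted p 0.00885) at early passage and by -1.65 (adjusted p 0.00152) pooled, lower in LM8 in both. So 3 of the 22 genes were called higher and 1 lower when pooled, against 5.47% and 7.36% of all genes. With normexp the early differences of Sulf1 and Hpse were 0.62 (adjusted p 0.450) and 0.54 (adjusted p 0.433), and their pooled differences 1.27 and 1.02. With the slide block the adjusted p was 0.0820 for Sulf1 at late passage, 0.0766 and 0.0601 for Hpse at early and late passage and 0.0687 for Fgfbp3 at early passage, and in the unscaled table Fgfbp3 was at -0.93 early (adjusted p 0.229) and -0.48 pooled (adjusted p 0.361).

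Of the 16 ERK-induced transcripts, 0 were called by limma at early passage (8 over 2-fold at an unadjusted p under 0.05), 2 lower at late passage (Etv1 and Phlda1), and 1 higher (Egr1) and 2 lower (Etv1 and Phlda1) with passages pooled. Over all genes, 3.74% were called at early passage, 2.45% lower at late passage, and 5.47% higher and 7.36% lower pooled. Of the 8, 5 were lower in LM8, against 37.7% of genes that were lower at that level. Egr1, Etv4 and Ier3 were higher, and the share of all genes higher at that level is not given here. Phlda1, an ERK-induced gene of the pleckstrin homology-like family, had levels of 1.55 and 1.71 in early Dunn and 1.89, 2.06 and 1.97 in late Dunn, and lay between -0.88 and -0.04 on the 6 LM8 arrays. Its pooled difference was -2.49 (adjusted p 2.3e-05). The direction of Egr1, an immediate early transcription factor, was opposite at 2.48 (adjusted p 0.0211), and with normexp it was at 0.74 (adjusted p 0.165). At late passage the slide block gave an adjusted p of 0.0601 for Etv1 and 0.0758 for Phlda1. Of the adaptor genes, Grb2 was called higher pooled through a probe other than its brightest, at 2.49, whereas its brightest probe differed by -0.71.

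**Figure D5:**
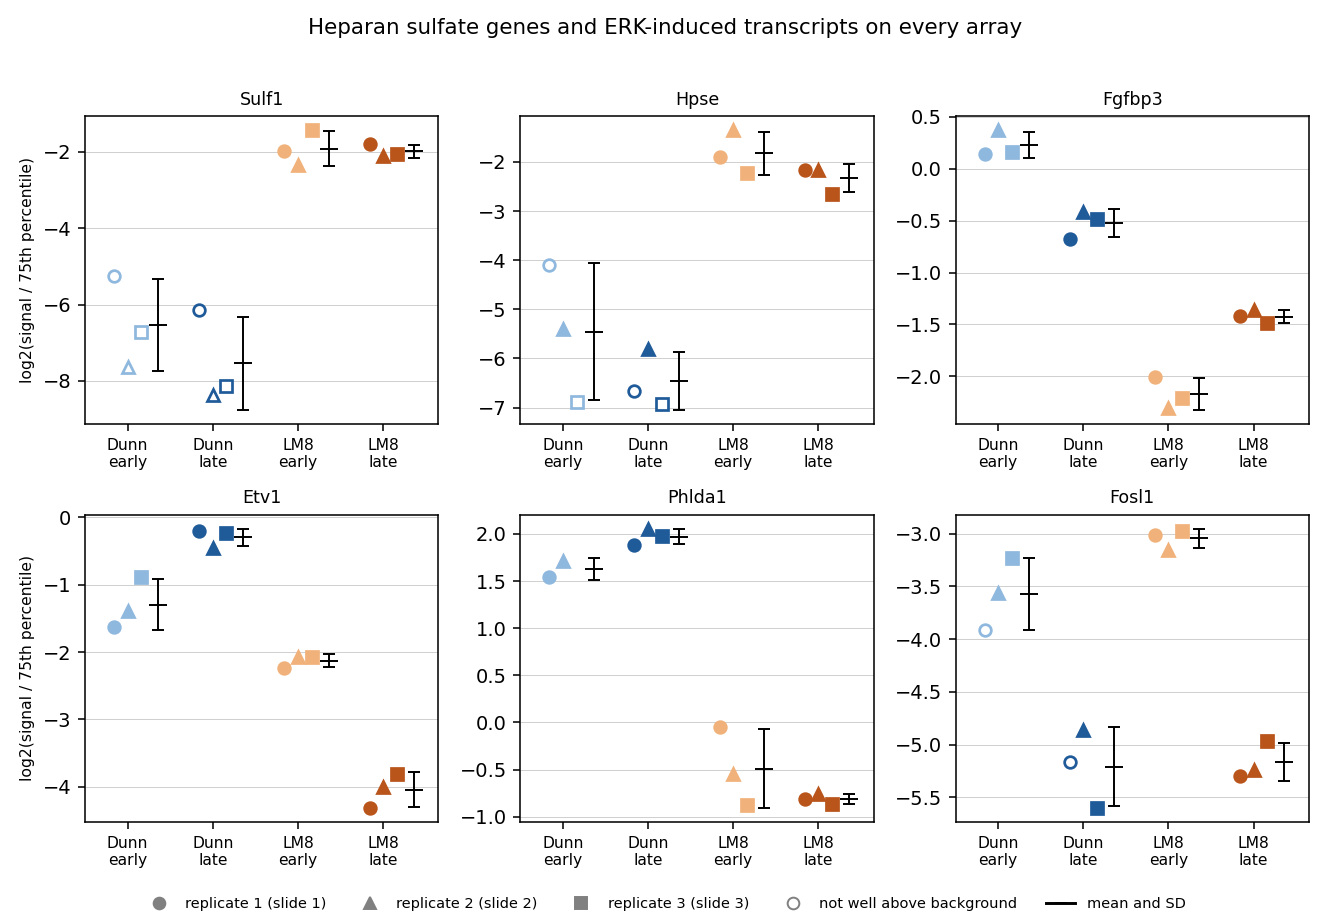
Levels of Sulf1, Hpse, Fgfbp3, Etv1, Phlda1 and Fosl1 on each array as log2 of the processed signal over the array's 75th percentile, with open symbols where the spot was not well above background and bars for the group mean and SD. All LM8 arrays lie above all Dunn arrays for Sulf1 and Hpse, and below all measured Dunn arrays for Phlda1.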

How the data were processed

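Total RNA of 12 cultures was labelled with Cy3 and hybridised to Agilent mouse 4x44K arrays. Per the labels, the authors read spot intensities with Agilent Feature Extraction 10.7.3. The deposited scanner files hold the background-corrected processed signal, an intensity, with median foreground and background intensities and spot flags, and the authors' normalized table held the same processed signal rounded (within 0.497%) and without further scaling. The genome build behind the authors' own probe annotation was not used here.

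From these intensities, spots of controls and outlier spots were excluded, the spots of each probe were averaged (43020 spots, 39429 probes), and the log2 ratio to the 75th percentile of each array was taken. Through RefSeq accessions, 26581 probes (67.4%) were matched to 20144 genes. The linear models of limma 3.58.1 (lmFit, then eBayes, 2-sided, R 4.3.3) were fitted on all probes for each comparison on the arrays of its groups, with Benjamini-Hochberg adjustment over all probes. A probe needed 2 values in a group. A gene was called when at least 1 probe was over 2-fold at an adjusted p under 0.05 and well above background on every measured array of a group on the higher side. The brightest probe stands for a gene. Values on every array are given for called members and for members well above background throughout, and pathway genes are named when called, at most 3 in each direction per list. Members, lists and tests were chosen with earlier results of these data known. The fits were tested on simulated data. Not every called pathway gene is reported here.

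Alternatives were quantile normalization, normexp (offset 50), the deposited table without scaling, a floor on dim signals, filters on detection, 1 probe a gene, a slide block, 1 fit over 12 arrays, the methods' t-test, array quality weights, the study's level (over 2-fold at an unadjusted p under 0.05), and leaving out each array. The mean foreground that normexp was planned on was not among the columns, so the median foreground was used. The replicate number is also the slide. Over 18 pairs of arrays that share a number, deviations from group means correlated from -0.237 to 0.678, with 12 pairs over 0.1. The highest was between the early and late Dunn arrays of slide 1. The block was to enter the main fits only if every pair was over 0.1, so it did not. That rule does not show that slides had no effect, and the slide block is given where it ends a call. Position on a slide and group cannot be told apart. The precision of an array level is limited by the 3 arrays per group, and p-values measure the spread between these cultures. In the pooled comparison they rest on that spread mixed with the difference between the early and late stocks of a line. Bulk RNA cannot separate fewer cells of a kind from less RNA per cell.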

Additional observations from a re-analysis of the deposited data

Results flagged for a closer look

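Among the FGF members and the pathway lists, the change of Etv1 with passage differed between the lines. Etv1, an ETS transcription factor induced by FGF and ERK signalling, had levels of -1.63, -1.38 and -0.89 in early Dunn and -0.21, -0.45 and -0.23 in late Dunn. In LM8 it had levels of -2.23, -2.07 and -2.07 at early and -4.32, -4.0 and -3.81 at late passage. The interaction of line and passage was -2.92 (SE 0.35, interval -3.71 to -2.13) with an adjusted p of 0.00696 in limma, and by slide it was -3.51, -2.86 and -2.39. Etv1 was higher at late passage on all 3 slides in Dunn and lower on all 3 in LM8. With normexp the adjusted p was 0.103, and without the arrays of slide 1 it was 0.0842.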

How the results depend on the processing

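The count of FGF members called moved with the processing in each comparison. In Dunn, 0 members called for late against early became 1 in 1 fit over all 12 arrays (Fgf15, adjusted p 0.0270), 3 with array quality weights and 2 at the study's level. In LM8, 2 called members became 1 with quantile normalization or normexp, 0 with the floor on dim signals, 4 with no requirement on background, 0 by the methods' t-test (Fgf9 adjusted p 0.0596, Fgf1 0.151) and 7 at the study's level. The floor raises every signal under -3.58, the lowest signal well above background on early Dunn replicate 1, to that value. The early LM8 side of Fgf9 and Fgf1 thus loses its low values by construction. Late LM8 values that were well above background are overwritten too, all those of Fgf1 and the -3.80 of Fgf9. At early passage, 0 called members became 1 with quantile normalization, the unscaled deposited table, only bright probes, no requirement on background, 1 probe a gene or 1 fit over 12 arrays, 5 with quality weights and 15 at the study's level. At late passage, 1 called member became 2 with quantile normalization or normexp, 0 with the unscaled table or the t-test, 4 with only bright probes, 1 fit over 12 arrays or quality weights, and 7 at the study's level. Pooled, 4 called members became 2 with quantile normalization, the unscaled table, the floor or 1 probe a gene, 13 with no requirement on background and 19 at the study's level. For the interaction, 0 became 1 with only bright probes (Fgf9, adjusted p 0.0351), 6 with quality weights and 4 at the study's level. The cause was not tested for these changes other than the floor. The share of all genes called under each setting is not given beside these counts, nor for the single arrays left out below. The counts are therefore not a result particular to the FGF members.

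In the unscaled table the pooled differences of Fgfr2 (0.16) and of the dimmer Fgf18 probe (0.12) changed sign. With array quality weights the Dunn passage difference of Fgf15 was -3.84 (adjusted p 0.00561). With single arrays left out there were 0 to 0 called members in the Dunn passage comparison, 1 to 3 in the LM8 passage comparison, 0 to 3 between the lines at early and at late passage, 2 to 4 pooled and 0 to 1 for the interaction. Fgf20 was added without early LM8 replicate 1, 3 members were called at early passage without early Dunn replicate 2 and at late passage without late Dunn replicate 1, and 2 pooled without early Dunn replicate 1 or 3 or late LM8 replicate 3. For single differences these ranges were -3.82 to -2.61 (Fgf15, Dunn passage), -1.4 to -1.0 (Fgf15, LM8 passage), 1.96 to 2.56 (Fgf1, LM8 passage), 4.21 to 4.94 (Fgf9, LM8 passage), -3.62 to -3.02, -2.52 to -2.02 and -3.10 to -2.42 (Fgf1 between lines, early, late and pooled).

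With the replicate number (slide) as a block, called members went from 2 to 1 in the LM8 passage comparison (Fgf1 adjusted p 0.114) and from 1 to 0 between the lines at late passage (Fgf1 adjusted p 0.133), while the other 4 counts did not move. Over all genes this block took the calls from 527 to 340, 750 to 234, 774 to 82 and 2577 to 2710 in the LM8 passage, early, late and pooled comparisons. Leaving out slide 1, chosen after seeing the data, gave 1 (Fgf15, adjusted p 0.0152) in the Dunn passage comparison, 2 in LM8, 1 between the lines at early passage, 3 at late passage, 1 pooled and 0 for the interaction. Dim members limit these data: the 19 FGF genes detected in no group have no reliable level, and 3 arrays a group leave intervals of over 1 log2 unit for several detected members.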

Other observations

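Among the osteoblast markers, Phex, an endopeptidase of bone cells whose loss raises the hormone Fgf23, was called higher in LM8 at both passages. Its level was -5.72, -4.18 and -6.77 in early Dunn and -4.50, -3.70 and -4.28 in late Dunn, against -2.12, -0.42 and -1.10 in early LM8 and -1.81, -0.63 and -0.68 in late LM8. All LM8 arrays lay above all Dunn arrays, with a difference of 4.34 (SE 0.74, adjusted p 0.0308 in limma) at early passage, 3.12 (SE 0.43, adjusted p 0.0260) at late passage and 3.73 (SE 0.52, adjusted p 0.000633) pooled. With normexp background correction the early difference was 1.05 with an adjusted p of 0.168. With the slide block the adjusted p was 0.0515 at early and 0.0884 at late passage, and with quantile normalization 0.0524 and 0.0992, so neither single-passage call held there. The brighter Fgf23 probe overlapped between the lines.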
